A study of Mus musculus with 6 samples.

Results

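The genes described here build the peroxisome or work inside it. They were chosen by name as 43 of the 23420 rows of the count table, 13 of them peroxins, the proteins of peroxisome biogenesis, and 30 of them peroxisomal enzymes and carriers. The row of Pex11g stood under its former symbol Pex11c. All 43 were above 1 CPM, the count scaled to a common library total, in 3 libraries or more and were among the 13168 genes tested. The tissue was a washed piece of whole proximal jejunum from ob/ob mice, which carry a mutated leptin gene on both alleles and overeat, or from C57BL/6J wild-type (WT) mice. According to the methods of the study the mice were males on chow, fasted for some hours before sacrifice, and the sources used here do not give the age of the RNA donors. Each group had 3 libraries, and each library was a pool of equal amounts of RNA from 2 jejuna. The WT mice were not described as littermates, so that the lack of leptin, overeating, obesity and any difference of colony cannot be told apart. P-values measure the spread between pools.

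Peroxisomes are small organelles with a single membrane that hold oxidases making hydrogen peroxide and the catalase that breaks it down. They shorten very long and branched fatty acids and the side chain of bile acid precursors, break down phytanic acid and D-amino acids, and make the first bonds of ether lipids. Their matrix proteins are made in the cytosol and carried in by receptors that read a short targeting signal, dock at the membrane, and are then pulled out again for reuse. In mouse liver many of these enzymes are classical targets of PPARα, a nuclear receptor activated by fatty acids, and enterocytes also hold peroxisomes.

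In all, 747 of 13168 genes passed the test between ob/ob and WT (edgeR quasi-likelihood F-test, adjusted p under 0.05), which is 5.67% of the genes, and 496 of these, or 3.77% of the genes, were higher in ob/ob and 251 lower. This split was 328 and 1407 with libraries scaled by total count and 390 and 468 with upper quartile factors. Of the 43 peroxisomal genes 4 passed, or 9.30%, all of them higher. They were Acox2 and Dao among the 30 enzymes and carriers and Pex7 and Pex14 among the 13 peroxins. At an unadjusted p under 0.05 the share was 25.6% of the peroxisomal genes (11 of 43) against 25.9% of all genes. Of these 11, 10 were higher and 1, Pipox, was lower, beside 1741 higher and 1668 lower among the 13168 genes. By the main edgeR test, DESeq2 and limma-voom alike, 0 of 43 were lower past the adjusted threshold. With libraries scaled by total count 2 enzymes were lower past it. Changes were small, since 38 of 43 (88.4%) lay within 1.25-fold of WT, compared with 81.4% of all genes, and for 36 of 43 the whole 95% interval lay within 1.5-fold. The median log2 fold change was 0.13 for the peroxins and 0.06 for the enzymes and carriers, beside -0.01 for all genes. Positive log2 fold changes were seen for 30 of 43 members (69.8%) and for 47.3% of all genes. That number depended on the scaling of the libraries and was 20 with library size alone, 24 with upper quartile factors and 10 with factors that hold 15 epithelial markers level. Under the main scaling and each of these 3, 31 of 43 lay above the median of all genes. A change of scaling shifts all genes nearly alike, so this count could hardly move. With 1 library left out it was 28 to 35 of the 42 or 43 members tested.

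The genomic sequence just before an annotated start of the genes that passed is shown. For a gene with several RefSeq starts the most upstream was used. Counts per gene do not tell which start the transcripts used. Of the 43 genes, 37 matched a RefSeq promoter on GRCm38.p6, the assembly behind mm10. Each stretch below is the part of the 250 bases before a RefSeq start that precedes any annotated exon, written from 5′ to 3′ on the strand of the gene, with CpG dinucleotides in capitals. The stretch of Pex7 is chr10:19907690-19907924 on the minus strand, that of Pex14 is chr4:149099877-149100093 on the minus strand, and that of Dao is chr5:114003485-114003702 on the plus strand.
Pex7: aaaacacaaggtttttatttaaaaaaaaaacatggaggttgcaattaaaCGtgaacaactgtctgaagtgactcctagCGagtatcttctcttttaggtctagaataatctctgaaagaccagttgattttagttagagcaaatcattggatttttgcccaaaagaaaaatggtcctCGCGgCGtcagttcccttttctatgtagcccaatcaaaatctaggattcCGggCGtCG
Pex14: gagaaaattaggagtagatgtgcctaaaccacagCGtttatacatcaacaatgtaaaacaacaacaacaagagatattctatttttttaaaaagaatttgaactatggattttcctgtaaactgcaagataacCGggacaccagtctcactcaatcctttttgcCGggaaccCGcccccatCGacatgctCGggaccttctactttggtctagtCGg
Dao: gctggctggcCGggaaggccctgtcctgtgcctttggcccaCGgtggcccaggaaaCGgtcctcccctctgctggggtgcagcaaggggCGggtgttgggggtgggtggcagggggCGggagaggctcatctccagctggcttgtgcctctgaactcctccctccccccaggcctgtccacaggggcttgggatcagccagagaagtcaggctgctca
They hold 8 CpG in 235 bases, 7 in 217 bases and 5 in 218 bases. In the same window of Acox2 an annotated exon reaches the most upstream base, so that no stretch precedes it and its letters are not printed.

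The stretches differ in base composition. G and C made up 40.0% of the 250 bases before Pex7 and 42.0% before Pex14, against 66.4% before Dao and 58.8% before Acox2. CpG numbered 11 and 8 in the full 250 bases of the peroxins Pex7 and Pex14, and 6 and 3 in those of Dao and Acox2. The median was 11 over 11 peroxins, 12 over 26 enzymes and carriers and 6 over all 27025 genes with a promoter. Acox2 lay at the low end of its own group, which ranged from 2 to 34. Its window, chr14:8259020-8259269, lies inside the annotated gene, so its values may describe transcribed sequence. PPARα binds with its partner RXR to a direct repeat of AGGTCA with 1 base between the copies. That repeat, AGGTCANAGGTCA, searched on both strands from 250 bases before to 50 bases after each start, was in 0 of 45 promoters of 37 peroxisomal genes and in 13 of 32851 promoters of all genes (0.0396%). A looser form, AGGNCANAGGNCA, which includes the first, was in 0 of 45 and in 0.381% of all. These letters are rare in such short windows, and sites farther from a start were not searched.

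The largest log2 fold changes among the peroxins were those of Pex7 and Pex14. Pex7, the receptor for matrix proteins with an N-terminal targeting signal, lies on chromosome 10 from 19853900 to 19907689. Its level was 32.6, 34.1 and 33.2 CPM in the ob/ob libraries and 26.8, 27.3 and 26.9 CPM in the WT libraries. The groups did not overlap, and each varied little among its own pools. The log2 fold change of Pex7 was 0.30 ± 0.06 (SE, edgeR adjusted p = 0.0252), or 23.4% more in ob/ob. Pex14, the membrane protein at which loaded receptors dock, lies on chromosome 4 from 148960535 to 149099876. It was at 29.2, 28.4 and 29.2 CPM in ob/ob and at 23.9, 22.9 and 24.6 CPM in WT, again with no overlap. Its log2 fold change was 0.28 ± 0.06 (SE, edgeR adjusted p = 0.0415). An annotated gene on the other strand, Gm17029, shares 28.3% of the exon length of Pex14, and the sources used here do not say whether reads were counted by strand. Both calls stood close to the threshold. Without any 1 of the 6 libraries, Pex7 missed it at log2 fold changes of 0.28 to 0.32 (edgeR adjusted p from 0.0524 to 0.0925), and so did Pex14 at 0.25 to 0.30 (0.0641 to 0.116). With library size alone Pex7 was at 0.19 (edgeR adjusted p = 0.0834) and Pex14 at 0.17 (0.159), and with epithelial factors they were at 0.09 (0.417) and 0.07 (0.583).

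**Figure D1:**
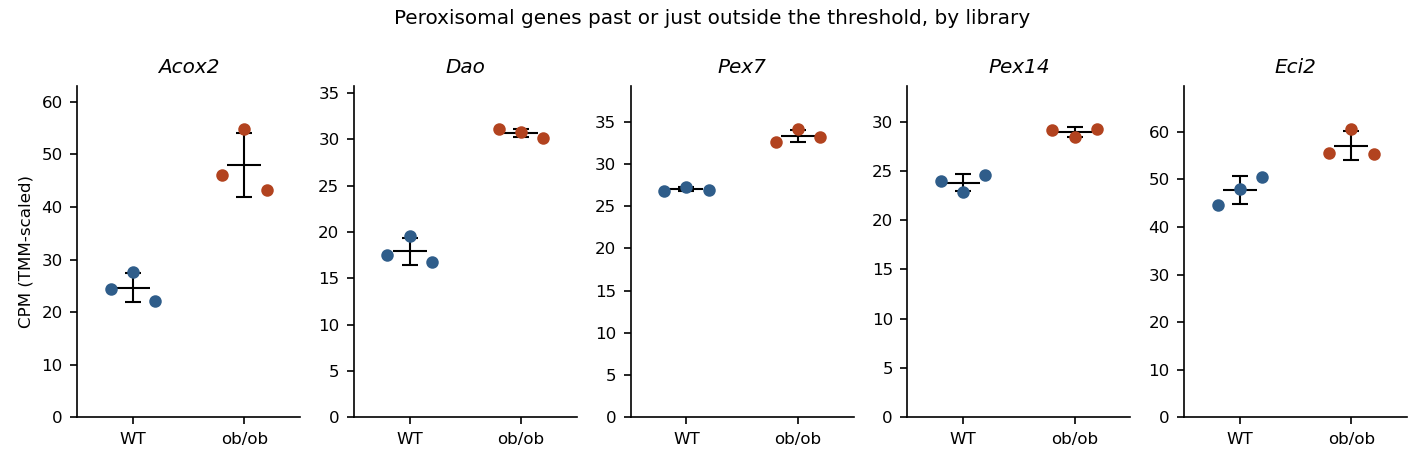
CPM scaled with TMM factors in each library (points) for 5 peroxisomal genes, with bars for the mean and SD of 3 libraries per group and every axis starting at 0. The groups do not overlap for any of the 5, and Acox2 and Dao stand farther apart between groups than Pex7, Pex14 and Eci2. Of the 5, Eci2 alone did not pass the test.

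The other import components had positive values that did not pass. Pex5, the receptor for proteins with a C-terminal targeting signal, was at 73.3, 67.0 and 76.2 CPM in ob/ob and 60.6, 70.7 and 66.1 CPM in WT, and the groups overlapped (log2 fold change 0.13, 95% interval -0.04 to 0.30). Pex13, which docks receptors together with Pex14, was at 49.8, 55.6 and 46.1 CPM against 39.6, 45.4 and 46.6 CPM (0.20 ± 0.09, SE, edgeR adjusted p = 0.186). All 4 members of this group thus lay above 0 under the main scaling, with a median of 0.24, while with epithelial factors Pex5 was at -0.08 and Pex13 at -0.01. Among the proteins that Pex7 carries in are the thiolases Acaa1a and Acaa1b, the ether lipid enzyme Agps and the phytanic acid enzyme Phyh. Their log2 fold changes were -0.12, -0.05, 0.04 and 0.09, and none of them passed.

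Among the peroxins that act on receptors after docking, and among those that insert membrane proteins, none passed. For the ring ligases Pex2 and Pex10, which put ubiquitin on spent receptors, log2 fold changes were 0.17 and -0.16. The levels of Pex2 did not overlap, at 45.7, 42.5 and 41.4 CPM in ob/ob and 40.3, 35.7 and 39.4 CPM in WT, but the difference did not pass (edgeR adjusted p = 0.176). Pex6, an ATPase that pulls receptors out of the membrane, was at 39.9, 39.5 and 39.5 CPM against 41.0, 39.2 and 42.2 CPM (log2 fold change -0.04, 95% interval -0.17 to 0.09). Its membrane anchor Pex26 was at 0.12. Membrane protein insertion gave the flattest group. Pex19, which binds new membrane proteins in the cytosol, was at 111, 110 and 111 CPM in ob/ob and 110, 114 and 103 CPM in WT, a log2 fold change of 0.03 with a 95% interval of -0.11 to 0.16. Its partners Pex16 (0.03) and Pex3 (-0.01) had intervals of -0.12 to 0.17 and -0.23 to 0.21, so that changes above 1.25-fold lay outside all 3 intervals.

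Division of the organelle was represented by Pex11a and Pex11g, which lengthen its membrane. Pex11a, the form known to be induced by PPARα in rodent liver, was at 11.7, 13.3 and 13.3 CPM in ob/ob and 10.4, 12.3 and 9.62 CPM in WT. Ob/ob 1 lay below WT 2, and the log2 fold change of 0.25 ± 0.12 (SE) did not pass (edgeR adjusted p = 0.219). Pex11g was at 0.15, and 41.1% of its exon length is shared with a gene on the other strand. Summed over all 13 peroxins the level was 498, 498 and 501 CPM in ob/ob and 456, 480 and 457 CPM in WT. Values of ob/ob did not overlap with WT and were higher for 4 of 13 peroxins (Pex2, Pex7, Pex11g and Pex14), and were lower for 0 of 13. Over all genes 15.8% were higher without overlap and 16.2% lower without overlap.

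**Figure D2:**
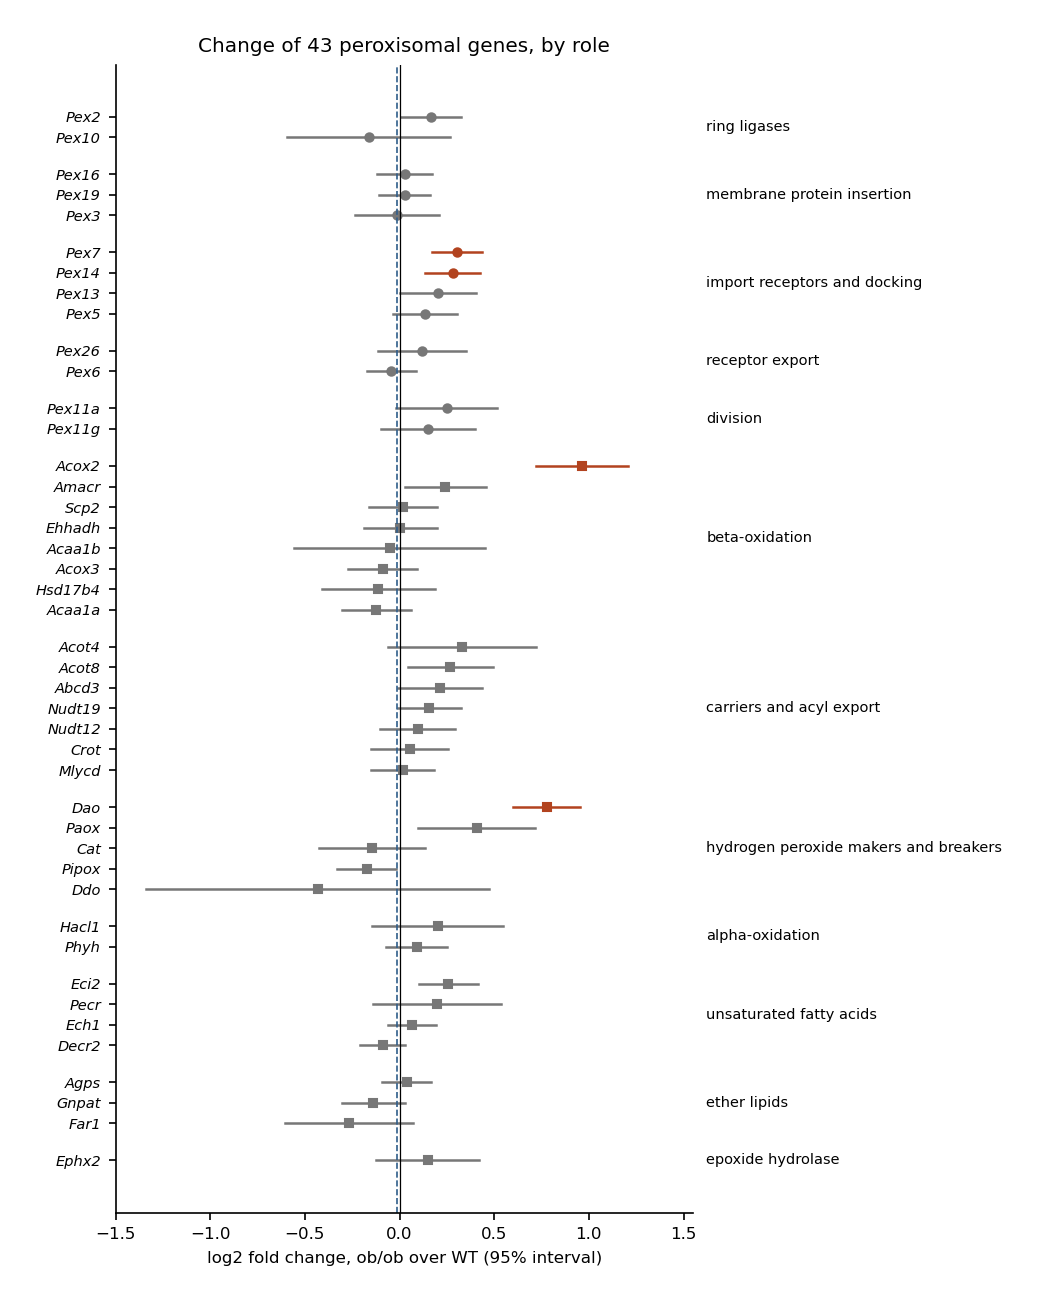
Log2 fold change of ob/ob over WT (points) with its 95% interval (lines) for 43 peroxisomal genes, grouped by role, with peroxins as circles, enzymes and carriers as squares, the 4 genes that passed in red, and the median of all genes, -0.01, as a dashed line. Acox2 (0.96) and Dao (0.78) stand apart, and the interval of Ddo, the least abundant member, is the widest.

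Among the enzymes, the largest log2 fold change belonged to Acox2. It encodes an oxidase that opens the shortening of the side chain of bile acid precursors, and lies on chromosome 14 from 8225511 to 8259353. Acox2 was at 46.2, 54.8 and 43.1 CPM in ob/ob and at 24.3, 27.6 and 22.2 CPM in WT, so that the lowest ob/ob library was well above the highest WT library. Its log2 fold change was 0.96 ± 0.11 (SE, edgeR adjusted p = 0.00576), a 1.95-fold difference. It passed under each of 16 alternative settings, and at 0.86 to 1.05 without any 1 library.

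None of the genes of the other steps of this pathway passed. Amacr, the racemase that turns branched substrates into the form the oxidase accepts, was at 19.0, 19.5 and 22.4 CPM in ob/ob and 18.5, 16.8 and 16.1 CPM in WT. The groups did not overlap, but the log2 fold change of 0.24 ± 0.10 (SE) did not pass (edgeR adjusted p = 0.150). Hsd17b4, the bifunctional enzyme of the next 2 steps, was at 240, 329 and 305 CPM against 289, 370 and 286 CPM, a log2 fold change of -0.11 with a 95% interval of -0.41 to 0.19. Scp2, a thiolase and sterol carrier that ends the round, was at 815, 845 and 869 CPM against 767, 918 and 809 CPM (0.02, 95% interval -0.16 to 0.20). In both genes the highest WT library was WT 2, which lay above every ob/ob library. Whether the change of Acox2 differs from that of each of these genes was not tested, though its 95% interval of 0.72 to 1.21 lies above theirs.

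Other beta-oxidation genes were likewise near 0. Ehhadh, the bifunctional enzyme for straight chains and a marker of PPARα activity in rodent liver, was at 157, 168 and 162 CPM in ob/ob and 173, 172 and 141 CPM in WT (log2 fold change 0.00, 95% interval -0.19 to 0.20). Acox3, an oxidase of branched fatty acids, was at -0.09. The thiolase Acaa1a was at 145, 167 and 179 CPM in ob/ob and 172, 187 and 175 CPM in WT (-0.12, 95% interval -0.31 to 0.06). Reads of Acaa1a and its close copy Acaa1b may have been split between them, so their separate values are uncertain. Of 8 beta-oxidation members 1 passed, and their median log2 fold change was -0.02. Ppara itself, the gene of PPARα, was at 160, 203 and 133 CPM in ob/ob and 101, 154 and 132 CPM in WT, with overlap between the groups (0.36 ± 0.17, SE, edgeR adjusted p = 0.222).

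Dao, the second enzyme that passed, encodes D-amino acid oxidase, which breaks down neutral D-amino acids and releases hydrogen peroxide. It lies on chromosome 5 from 114003703 to 114025682. Its level was 31.1, 30.8 and 30.2 CPM in ob/ob and 17.5, 19.6 and 16.7 CPM in WT. The ob/ob pools were nearly level with each other, with a coefficient of variation of 1.51%, and all lay above WT. The log2 fold change was 0.78 ± 0.08 (SE, edgeR adjusted p = 0.00445), or 1.71-fold. It too passed under each of 16 alternative settings, and at 0.73 to 0.84 without any 1 library.

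None of the other oxidases of amino acids and amines passed. Ddo, which acts on D-aspartate, was barely detected, its ob/ob libraries holding 15, 20 and 7 counts and its WT libraries 22, 23 and 14, and its log2 fold change of -0.43 had a 95% interval of -1.34 to 0.47. Pipox, which oxidises pipecolic acid and sarcosine, was at 40.9, 42.0 and 36.8 CPM in ob/ob and 42.8, 46.2 and 45.9 CPM in WT. Each ob/ob value was below each WT value, but the difference of -0.17 ± 0.07 (SE) did not pass (edgeR adjusted p = 0.157). Paox, a polyamine oxidase, was at 13.7, 17.1 and 12.0 CPM against 11.4, 10.1 and 10.7 CPM, also without overlap, and its 0.41 ± 0.14 (SE) did not pass (edgeR adjusted p = 0.105). Catalase (Cat), which removes the hydrogen peroxide that all of these make, was at 433, 507 and 480 CPM in ob/ob and 465, 637 and 468 CPM in WT. The WT mean rested on WT 2, and the log2 fold change was -0.14 with all libraries and 0.02 without WT 2, with no call in either case.

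Genes grouped as carriers and acyl export, a group that also held hydrolases and a decarboxylase, had log2 fold changes above 0 in 7 of 7 cases. Their median was 0.16, and none passed. Abcd3, an ABC transporter for branched and dicarboxylic acyl groups, was at 495, 625 and 495 CPM in ob/ob and 435, 476 and 483 CPM in WT. The ob/ob values lay above WT without overlap, with ob/ob 2 far above the other pair (0.21 ± 0.10, SE, edgeR adjusted p = 0.210). Acot8, a thioesterase that frees acids from coenzyme A, was at 26.4, 30.9 and 26.2 CPM against 25.4, 20.6 and 23.3 CPM (0.27 ± 0.10, SE, edgeR adjusted p = 0.131). Acot4, another thioesterase with close relatives next to it on chromosome 12, was at 0.33 with overlapping groups. Crot, which makes carnitine esters of medium chains for export, was at 229, 265 and 244 CPM against 225, 268 and 218 CPM (0.05, 95% interval -0.15 to 0.26). Mlycd, the malonyl-CoA decarboxylase, was lowest of the 7 at 0.02, and the hydrolases Nudt19 and Nudt12 were at 0.16 and 0.10. With epithelial factors the sign of 20 of the 43 members changed, so the count of 7 is relative to the main scaling.

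Enzymes that handle double bonds included the gene nearest to the threshold on its outer side. Eci2, an enoyl-CoA isomerase, lies on chromosome 13 from 34977748 to 35027096 and was at 55.5, 60.5 and 55.2 CPM in ob/ob and 44.6, 48.0 and 50.5 CPM in WT. Its log2 fold change of 0.26 ± 0.07 (SE) lay just outside (edgeR adjusted p = 0.0583), close to the values of Pex14 just inside, and passed only with the likelihood ratio test of edgeR (adjusted p = 0.0364) among 16 alternatives. Ech1, a dienoyl-CoA isomerase, was at 133, 134 and 136 CPM against 122, 132 and 132 CPM (0.07). Decr2, a dienoyl-CoA reductase, was at 59.1, 60.6 and 59.7 CPM against 62.6, 65.4 and 62.9 CPM. It was lower in ob/ob without overlap by a small margin (-0.09 ± 0.05, SE, edgeR adjusted p = 0.315). The reductase Pecr was at 0.20 with overlapping groups.

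In the remaining pathways no gene passed. Phyh and Hacl1, the hydroxylase and lyase of phytanic acid breakdown, were at log2 fold changes of 0.09 and 0.20. Gnpat, Agps and Far1, which make the first bonds of ether lipids and the fatty alcohol they need, were at -0.14, 0.04 and -0.27. For Far1 the WT values of 17.3, 11.9 and 12.2 CPM were spread by WT 1, and ob/ob lay at 11.9, 11.6 and 10.9 CPM. Ephx2, the soluble epoxide hydrolase found in both cytosol and peroxisomes, was at 599, 770 and 639 CPM in ob/ob and 545, 702 and 564 CPM in WT, where the second library of each group was the highest (0.15, 95% interval -0.12 to 0.42). Across the 30 enzymes and carriers, ob/ob values lay above WT without overlap for 8 and below for 2 (Pipox and Decr2), which are 26.7% and 6.67%, beside 15.8% and 16.2% of all genes.

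Levels per kb of annotated exon covered a wide range in this tissue. The most abundant members in WT were Ephx2 (243 CPM per kb), Scp2 (239), Cat (200) and Phyh (146). Ephx2 and Scp2 did not differ beyond their spread, with coefficients of variation of 14.3% and 9.35% over WT libraries. Peroxins lay lower, from Pex16 (29.5 CPM per kb) and Pex19 (28.5) down to Pex10 (1.49). The 4 genes that passed ranked 26 (Acox2), 28 (Dao), 33 (Pex14) and 39 (Pex7) among the 43. Acox2 went from 6.67 to 12.97 CPM per kb and Dao from 6.07 to 10.4, while Pex14 went from 3.79 to 4.61 and Pex7 from 2.23 to 2.76. Ddo was lowest, at 0.131 CPM per kb in WT. The exon length used is the union over all annotated transcripts, so a gene with long unused exons appears low.

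**Figure D3:**
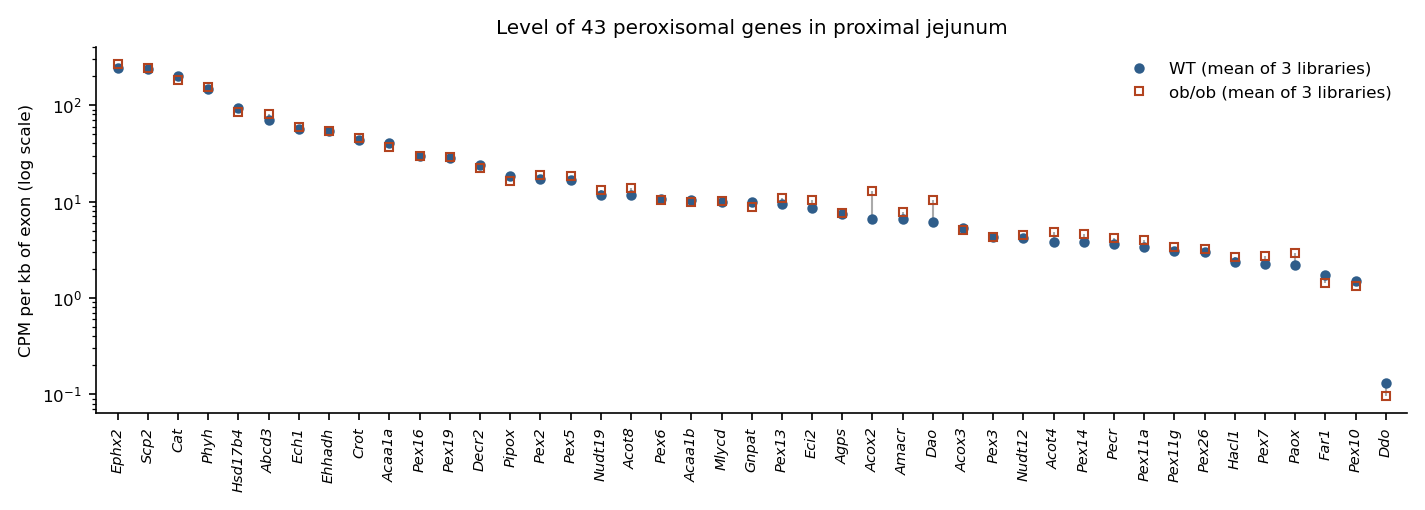
Mean level in CPM per kb of exon on a log scale for each of 43 peroxisomal genes, ordered by the WT level, with WT as filled circles and ob/ob as open squares (3 libraries each). The order runs from Ephx2 at 243 to Ddo at 0.131, and the widest gaps between the symbols are those of Acox2 and Dao.

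The members also varied together within the groups. WT 2 was the highest WT library for 28 of 43 members (65.1%), against 34.8% of all genes, and ob/ob 2 was the highest ob/ob library for 21 of 43 (48.8%), against 34.4% of all genes. For WT 2 this was so in 9 of 13 peroxins and 19 of 30 enzymes and carriers. For ob/ob 2 it was so in 3 of 13 peroxins and 18 of 30 enzymes and carriers. Both held for 13 of 43 members (30.2%) and for 13.7% of all genes. This joint share rises with the single shares and does not by itself show a link between the groups. Summed over the 30 enzymes and carriers the level was 4140, 4782 and 4407 CPM in ob/ob and 4024, 4746 and 4106 CPM in WT. The sum of WT 2 was thus higher than that of 2 of 3 ob/ob libraries. The members share libraries and are not independent, and these shares are a description with no test.

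**Figure D4:**
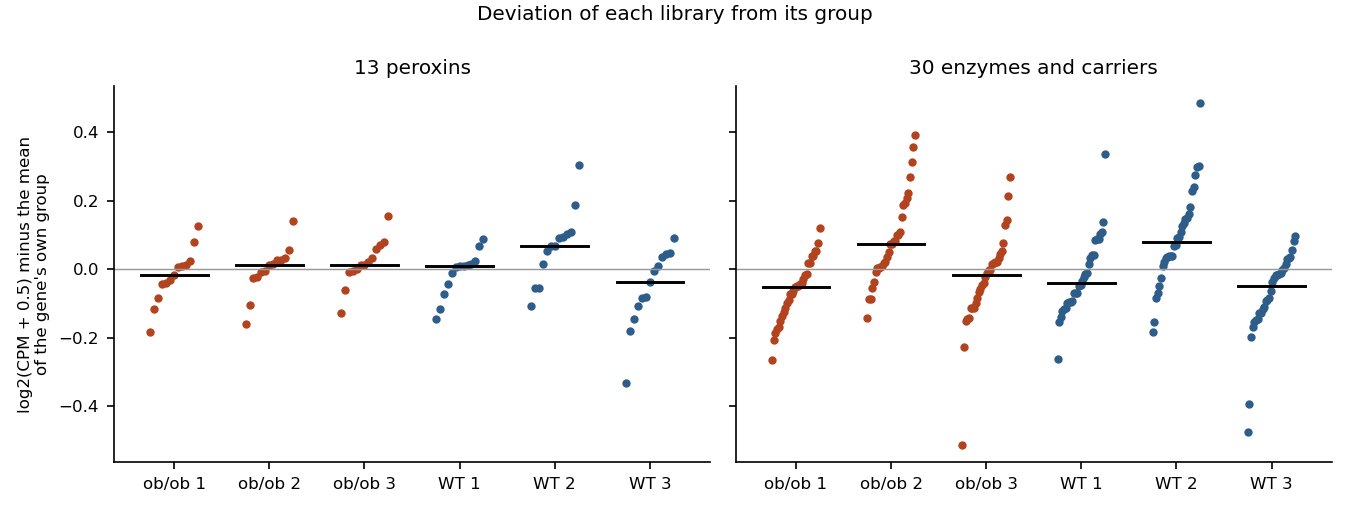
Difference between log2(CPM + 0.5) in a library and the mean of that gene over its own group, for 13 peroxins (left) and 30 enzymes and carriers (right), with a point per gene and a black line at the median. For enzymes and carriers the medians of ob/ob 2 (0.07) and WT 2 (0.08) lie above those of the other libraries, which are below 0, and for peroxins the median of ob/ob 2 is 0.01.

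Other genes of the organelle were counted as a second list. Of 42 other peroxisomal genes 35 were tested, and 1 was higher past the threshold (2.86%, beside 5.67% of all genes called in either direction). By the main edgeR test, DESeq2 and limma-voom 0 were lower. The likelihood ratio test of edgeR called 1 higher and 1 lower, and upper quartile factors gave 0 higher and 1 lower. At an unadjusted p under 0.05, 5 of the 35 were higher and 6 lower. That is 31.4% of the 35, beside 25.9% of all genes, of which 1741 were higher and 1668 lower. The median log2 fold change of the 35 was -0.01. The gene that passed was Fis1, an adaptor for the division of peroxisomes and mitochondria, at 90.2, 90.7 and 84.0 CPM in ob/ob and 74.6, 71.8 and 75.0 CPM in WT (0.26 ± 0.06, SE, edgeR adjusted p = 0.0373). Leaving out any 1 of the 6 libraries left Fis1 outside the threshold, at 0.24 to 0.29 (edgeR adjusted p from 0.0599 to 0.116). Without overlap, 5 of the 35 (14.3%) were higher in ob/ob and 9 (25.7%) lower, beside 15.8% and 16.2% of all genes.

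The libraries held 14661981 to 18286080 counts, so that 3 counts corresponded to 0.159 to 0.197 CPM. Leptin (Lep) was covered by 0 to 23 counts per ob/ob library and 6 to 29 per WT library, too few to check the labels, and the ob mutation need not remove the transcript. The piece of gut held the enterocyte markers of the jejunum, and ileal markers summed to 0.73 to 3.26 CPM, liver markers to 2.02 to 3.51 CPM and exocrine pancreas markers to 0 to 0.32 CPM. The sum of 15 enterocyte and epithelial markers was 54161 to 58149 CPM in ob/ob and 44844 to 49998 CPM in WT, without overlap, and 3 of 15 were higher past the threshold (Krt20, Fabp2 and Alpi). Markers of villus tip enterocytes summed to 2412, 3597 and 2858 CPM in ob/ob and 2009, 1868 and 1945 CPM in WT, with 3 of 6 higher (Ada, Nt5e and Slc28a2). Markers of endothelium (62.4 to 71.8 CPM against 81.8 to 87.7) and fibroblasts (317 to 378 CPM against 399 to 422) were lower in ob/ob without overlap, with 1 of 7 (Kdr) and 0 of 6 past the threshold. Fat cell markers summed to 357 CPM in WT 2 and 102 to 122 CPM in the other 5 libraries, with 2 of 8 (Cfd and Car3) lower in ob/ob past the threshold. Outside WT 2 most of that sum was Cidec, at 69.6 to 96.9 CPM over all libraries and a log2 fold change of 0.28. Of 7 fat cell markers tested, 6 were lower in ob/ob without overlap, so that each WT library lay above each ob/ob library for them. None passed among 6 smooth muscle, 5 T cell, 5 myeloid and 6 enteric neuron and glia markers. In whole tissue, fewer cells of a type and less RNA per cell cannot be told apart, and the part of these shifts in the values of Acox2, Dao, Pex7 and Pex14 was not tested. With the 15 epithelial markers held level, Acox2 was at 0.74 (edgeR adjusted p = 0.00464) and Dao at 0.56 (0.00715). The median of all genes was then -0.23, and 3507 of 13168 genes were lower past the threshold. Among them were 8 of the 43 members, which included Cat, Acaa1a, Hsd17b4 and Pipox.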

How the data were processed

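Total RNA of proximal jejunum was sequenced in 3 ob/ob and 3 WT libraries, each a pool of 2 jejuna. The authors aligned reads to mm10 with TopHat2 (version 2) and used HTSeq 0.6p1 for counting reads per gene, as the submitters' processing notes give it. The sources used here do not give the strand setting. The deposited counts are whole reads without normalization, and every row names a gene. The authors' table of fold changes and p-values, from edgeR 3.4.2, was not used, nor were 42 columns of normalized or excerpted values, 12 of them from outside the series.

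Genes were kept where at least 3 libraries were above 1 CPM. They were tested in edgeR 4.0.16 (R 4.3.3) by its quasi-likelihood F-test, with TMM factors, group as the only term, two-sided, and Benjamini-Hochberg adjustment over all tested genes at 0.05. The SE of a log2 fold change was taken as its absolute value over the root of F, and 95% intervals use the moderated degrees of freedom. CPM carry the TMM factors. Levels per kb use exon unions of GENCODE M21 on GRCm38, and exon overlaps were read from it. Depth was 14661981 to 18286080 counts per library. Replicates of a group differed by more than sampling noise (chi-square over its degrees of freedom 7.38 or more), and all 6 libraries were kept apart. The procedure was tested on simulated data. Alternatives used other scalings and filters, the likelihood ratio test of edgeR, DESeq2 1.42.0, limma-voom (limma 3.58.1), thresholds of 0.01 and 0.1, a replicate block and each library left out. Factors from 15 epithelial markers were added after seeing the data. Promoters are those of RefSeq. Figures were drawn with matplotlib 3.10.9.

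The members and lists were chosen with earlier results of these data known. Every member is named. Values by library, with fold change, SE and adjusted p, are given for members past the threshold and just outside it, and for further members as examples of their role. Of the further peroxisomal genes those past the threshold are named.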

Additional observations from a re-analysis of the deposited data

How the results depend on the processing

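Acox2 and Dao passed under each of 16 alternatives, and no member changed sign between a setting in which it passed and the main one. Of all genes 1735 passed with library size alone, 1404 with the likelihood ratio test, 3735 with epithelial factors (228 higher, 3507 lower), 70 at a threshold of 0.01 and 1854 at 0.1, against 747, and 122 to 674 with 1 library left out. Of the peroxins, 0 passed with library size alone and at 0.01, 1 with upper quartile factors, with DESeq2 and with the replicate block, 1 (lower) with epithelial factors, and 0 with any 1 library left out, against 2. Of the enzymes and carriers, 4 passed with library size alone (2 higher, 2 lower) and 9 with epithelial factors (2 higher, 7 lower), against 2. Of the further peroxisomal genes 1 passed in the main setting, and it was higher. With library size alone 6 passed and with epithelial factors 11, all of them lower. At 0.1 there were 6 (3 higher, 3 lower), with the likelihood ratio test 2 (1 higher, 1 lower) and with DESeq2 2 (both higher). Upper quartile factors gave 1, which was lower. None passed with the replicate block, at 0.01, or with any 1 library left out. The median log2 fold change of all genes was -0.13 with library size alone and -0.23 with epithelial factors, so that calls shift downward together under both, and otherwise the cause was not tested. With 1 library left out fewer samples carry the test.

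Replicate numbers did not pair the libraries (correlations of deviations -0.064, 0.124 and -0.063), so the numbers are shared labels only. With the replicate block 730 of all genes passed, Pex14 missed the threshold at 0.28 (edgeR adjusted p = 0.0593), and Pex7 (0.30), Acox2 (0.96) and Dao (0.78) passed. Depth limits Ddo, with 7 to 23 counts per library.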
